A study of Mus musculus with 18 samples.

Results

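Lightly and heavily mutated B cell clones were compared in the VH186.2 segment of mice that differed in the DNA exonuclease EXO1. A clone was called lightly mutated when its drawn sequence carried 1 to 3 mutated positions between nucleotide 30 and the last base of codon 95, and heavily mutated when it carried 6 or more. The classes were therefore chosen by the measured number of mutated positions, and that number and the class sizes below are a description of the choice. Of 20618 sequences with a listed mutation, 12874 were lightly mutated, 3577 were heavily mutated, 2597 carried 4 or 5 mutated positions and 1570 were mutated only outside this stretch. Each sequence was weighted by the share of the 1000 random draws in which it represented its clone. On this scale the lists held 1939.6 mutated clones per draw, of which 627.1 (32.3%) were lightly mutated, 828.5 (42.7%) heavily mutated and 356.8 (18.4%) in between. Near the limits of the classes, 193.7 clones carried 3 mutated positions, 192.6 carried 4, 164.2 carried 5 and 158.4 carried 6.

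Somatic hypermutation begins when the deaminase AID turns cytosine into uracil, most often in the motif WRC or its reverse complement GYW (W is A or T, R is A or G, Y is C or T). Replication over the uracil gives transitions at G:C pairs (G to A or C to T), whereas removal of the uracil by UNG can also give transversions. Resection around the uracil by EXO1 and refilling by the error-prone polymerase Polη spread mutations to A:T pairs, most often at WA or TW. The base pair mutated, the kind of change and the motif are therefore read as traces of these steps.

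The 18 mice, described as age-matched and of C57BL/6 background, carried wild-type Exo1 (Exo1+/+, n = 7), the nuclease-dead D173A knock-in allele in both copies (Exo1DA/DA, n = 8) or no functional Exo1 gene (Exo1-/-, n = 3). The knock-in allele was made with CRISPR/Cas9 in zygotes, and both mutant alleles were carried in the germline, not restricted to B cells. All mice received NP(33)-CGG on alum by intraperitoneal injection, and VH186.2 was amplified from splenocyte RNA taken on day 10. No B cell or germinal center markers were measured, and the VH186.2 transcript itself was the only marker of the cells sampled. From whole-spleen RNA, fewer mutated cells and less transcript per cell cannot be told apart. The lists name mice by dataset numbers that are not tied to the mouse numbers of the sample labels. Each dataset number was taken as 1 mouse, and mice are numbered here within their genotype in the order of those numbers. The p-values below measure the spread between these samples.

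VH186.2 is the mouse gene Ighv1-72, which lies on chromosome 12 at chr12:115757984-115758277 (GRCm38.p6, RefSeq). It encodes the heavy chain variable segment typical of the response to the hapten NP in this strain, and a tryptophan to leucine change in codon 33 (W33L, made by G98T) is the known affinity-raising change of that response. Nucleotides and codons are counted here from the start of the V segment in the lists, and a token such as G98T gives the germline base, the position and the new base. The germline sequence of the stretch, taken from the germline bases of the lists, is shown as the reference for the clones that follow.
Germline, nucleotide 30 through codon 95: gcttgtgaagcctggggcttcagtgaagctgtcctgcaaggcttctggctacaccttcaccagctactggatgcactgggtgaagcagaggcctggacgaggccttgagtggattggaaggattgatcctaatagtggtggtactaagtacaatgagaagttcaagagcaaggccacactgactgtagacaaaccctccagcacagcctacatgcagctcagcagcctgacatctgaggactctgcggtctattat

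The commonest pattern of each kind shows how the classes looked. Capitals mark the mutated bases. G98T alone was the commonest lightly mutated pattern, with 80.8 clones per draw (12.9% of all lightly mutated clones). It was listed in all 18 mice but unevenly, with 23.2 of these clones in Exo1-/- mouse 3 and 22.2 in Exo1+/+ mouse 2.
Lightly mutated, all mice: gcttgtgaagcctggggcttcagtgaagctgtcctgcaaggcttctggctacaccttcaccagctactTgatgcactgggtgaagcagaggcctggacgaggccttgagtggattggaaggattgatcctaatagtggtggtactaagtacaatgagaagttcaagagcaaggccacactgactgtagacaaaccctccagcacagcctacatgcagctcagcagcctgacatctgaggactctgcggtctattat
Among heavily mutated clones of Exo1+/+ mice the commonest pattern had 16 mutations (15.3 clones, 14.3 of them in Exo1+/+ mouse 2), of which 11 were transitions and 4 lay at A:T pairs.
Heavily mutated, Exo1+/+: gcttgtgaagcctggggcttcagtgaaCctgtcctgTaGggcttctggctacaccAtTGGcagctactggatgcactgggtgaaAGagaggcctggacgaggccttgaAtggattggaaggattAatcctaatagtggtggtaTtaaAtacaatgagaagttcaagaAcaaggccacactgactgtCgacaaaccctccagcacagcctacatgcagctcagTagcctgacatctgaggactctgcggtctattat
The commonest Exo1DA/DA pattern had 11 mutations (11.9 clones, all in Exo1DA/DA mouse 1), of which 10 were transitions, 7 lay in AID hotspots and 0 lay at A:T pairs. It was not particular to that genotype, since 13.2 clones of 5 Exo1+/+ mice had the same pattern, 9.18 of them in Exo1+/+ mouse 6.
Heavily mutated, Exo1DA/DA: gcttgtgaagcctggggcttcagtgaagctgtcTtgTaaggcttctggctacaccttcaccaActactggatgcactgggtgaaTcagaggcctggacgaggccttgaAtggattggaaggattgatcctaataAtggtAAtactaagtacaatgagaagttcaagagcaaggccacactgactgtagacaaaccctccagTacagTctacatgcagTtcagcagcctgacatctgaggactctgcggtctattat
The commonest Exo1-/- pattern had 6 mutations (17.1 clones, all in Exo1-/- mouse 2), of which 2 were transitions, 5 lay in AID hotspots and 0 lay at A:T pairs.
Heavily mutated, Exo1-/-: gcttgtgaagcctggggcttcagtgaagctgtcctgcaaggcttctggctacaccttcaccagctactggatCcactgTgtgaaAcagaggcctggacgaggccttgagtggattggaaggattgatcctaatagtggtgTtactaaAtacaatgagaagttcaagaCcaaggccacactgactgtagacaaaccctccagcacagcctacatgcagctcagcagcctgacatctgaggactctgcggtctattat
G98T was present in none of these 3 heavily mutated patterns.

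Lightly mutated clones outnumbered heavily mutated clones in 5 of the 7 wild-type mice, in 3 of the 8 Exo1DA/DA mice and in 2 of the 3 Exo1-/- mice. Pooled over mice, lightly and heavily mutated clones made up 44.8% and 32.1% of the mutated clones in wild-type mice, 22.3% and 46.0% in Exo1DA/DA mice and 19.7% and 61.2% in Exo1-/- mice. Few mice carried the pooled shares. Mouse 2 alone supplied 226.5 of the 251.5 heavily mutated Exo1-/- clones, against 5.72 lightly mutated ones. The other Exo1-/- mice had more lightly than heavily mutated clones, 24.0 against 20 in mouse 1 and 51.3 against 5 in mouse 3. Exo1DA/DA mice 5 and 6 had only 1.14 and 1.01 lightly mutated clones, and the other 6 had between 14.5 and 34.3. In Exo1+/+ mice the lightly mutated clones of a mouse numbered between 10.8 and 160.4 and the heavily mutated ones between 8 and 119.3. A heavily mutated clone carried 10.1 ± 1.55 mutations in the wild type (SD, n = 7), 8.87 ± 1.57 with Exo1DA/DA (n = 8) and 9.82 ± 0.83 with Exo1-/- (n = 3), with up to 27 mutated positions in a clone.

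**Figure D1:**
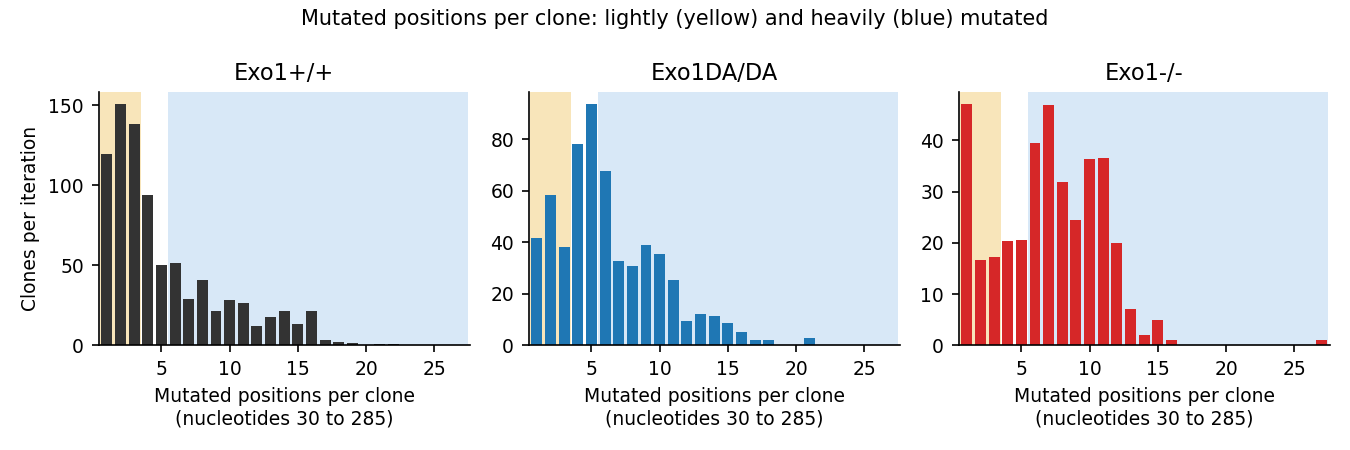
Clones per draw (y axis) by the number of mutated positions in the stretch examined (x axis), summed over the mice of each genotype, with the lightly mutated class shaded yellow and the heavily mutated class shaded blue. The y axes differ between genotypes. Exo1+/+ clones were most frequent at 2 positions, Exo1DA/DA clones at 5, and Exo1-/- clones formed a peak at 1 and another between 6 and 11.

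The clones of a class were not independent. Sequences of a mouse were joined into a lineage when they had at least 4 mutations and a Jaccard index (shared mutations over all mutations of both) of at least 0.7. The largest lineage held between 10.5% and 100% of the heavily mutated clones of an Exo1+/+ mouse (median 46.7%) and between 8.77% and 100% of those of an Exo1DA/DA mouse (median 56.3%). Sequences of both classes also recurred across mice. On average over mice, 74.8%, 80.3% and 76.3% of the lightly mutated clones of Exo1+/+, Exo1DA/DA and Exo1-/- mice had a pattern that was also listed in another mouse, against 37.6%, 16.2% and 35.0% of the heavily mutated clones. These values are not alike, since lightly mutated patterns hold at most 3 mutated positions. On average 34.7%, 44.8% and 49.2% of the lightly mutated clones had only 1, and such patterns can recur in separate mice more readily. Among heavily mutated clones pooled over mice, 53.3% (58.1% in wild-type, 59.5% in Exo1DA/DA and 40.7% in Exo1-/- mice) resembled a heavily mutated sequence of another mouse with an index of at least 0.7, and 33.9% had an identical pattern in another mouse. The 11-mutation Exo1DA/DA pattern printed above was listed in 7 mice (Exo1+/+ mice 2, 4, 5, 6 and 7, Exo1DA/DA mouse 1 and Exo1-/- mouse 3). The 6-mutation Exo1-/- pattern was listed in 6 mice of all 3 genotypes. Such sharing reached 97.4% and 100% of the heavily mutated clones of Exo1+/+ mice 5 and 6, and 95.0% and 82.0% of those of Exo1DA/DA mice 1 and 7. Whether shared sequences came from separate mice was not tested, so results are also given without the shared sequences of heavily mutated clones. Shared lightly mutated sequences were kept.

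Classes were compared within each mouse that had at least 10 mutations per draw of the kind counted in both classes, by 2-sided exact sign-flip permutation tests over mice. The smallest p is 0.0156 with 7 mice, 0.0312 with 6 and 0.25 with 3. Of 25 tests in 3 families, the family of class comparisons held 13, and p-values were adjusted within each family by the Benjamini-Hochberg method. No class comparison had an adjusted p below 0.05, and the lowest was 0.102.

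Codon 33 was mutated less in the heavily mutated clones of every mouse compared. In Exo1+/+ mice mutations of nucleotide 98, of which 99.7% were G98T, made up 51.5%, 28.8%, 1.39%, 23.7%, 15.04%, 10.8% and 32.9% of the mutations of lightly mutated clones (mice 1 to 7). In the heavily mutated clones of the same mice they made up between 0% and 1.56%. The share was lower in the heavily mutated clones of 7 of 7 mice (23.4% ± 16.4 against 0.60% ± 0.72, exact p = 0.0156, adjusted over 256 positions 0.0615). A lower share would follow in part from the larger number of other mutations in a heavily mutated clone, so carriers were counted as well. G98T was carried by between 2.97% and 95.4% of the lightly mutated clones of an Exo1+/+ mouse (median 38.6%) and by at most 14.6% of the heavily mutated ones (median 1.31%). Pooled over mice, 48.7% of the lightly and 9.16% of the heavily mutated Exo1+/+ clones carried it.

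The mutants were arranged likewise, and nucleotide 98 of Exo1DA/DA mice took 18.9% ± 16.9 of the mutations of lightly mutated clones and 0.39% ± 0.60 of those of heavily mutated clones, lower in 6 of 6 mice (exact p = 0.0312, adjusted 0.0842). G98T carriers were 37.5% of the lightly and 5.10% of the heavily mutated clones pooled. They were found among the heavily mutated clones of only 2 of 8 Exo1DA/DA mice (mouse 1 with 12.2% and mouse 4 with 10%). In Exo1-/- mice 3.11%, 16.8% and 35.9% of the mutations of lightly mutated clones lay at nucleotide 98, and at most 0.000396% of those of heavily mutated clones. Pooled, G98T was carried by 37.1% of the lightly and 0.000795% of the heavily mutated Exo1-/- clones. The adjacent change G99A, which taken alone would turn codon 33 into a stop, came with G98T in 95.7% of its lightly mutated carriers in Exo1+/+ mouse 7, where it was present in 37.8% of lightly mutated clones, and both changes together again encode leucine (W33L).

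**Figure D2:**
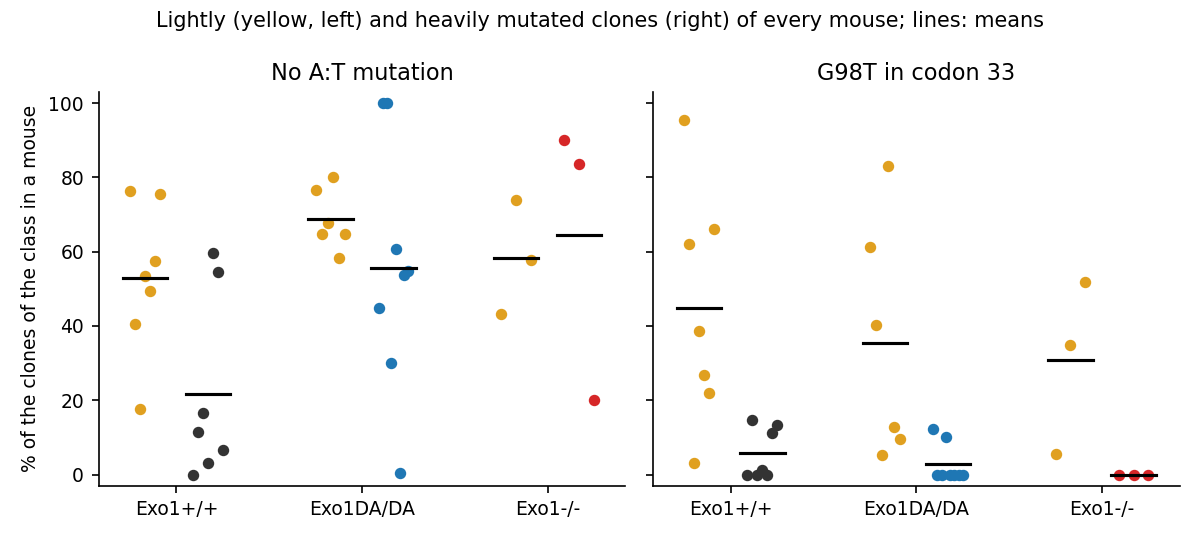
Percent of the clones of a class (y axis) in each mouse that carry no A:T mutation (left) or carry G98T (right), for lightly (yellow) and heavily mutated clones of each genotype, in mice with at least 10 mutations per draw in the class; lines are means. Heavily mutated clones with G98T reach at most 14.6% in any mouse, while heavily mutated clones without an A:T mutation run from 0% to 59.7% in Exo1+/+ and to 100% in Exo1DA/DA mice.

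Transitions made up a larger part of the G:C mutations of heavily mutated clones in every mouse compared. In the 7 Exo1+/+ mice the transition share of lightly mutated clones was 9.74%, 19.1%, 36.7%, 53.0%, 53.5%, 56.1% and 43.0% (mice 1 to 7), and that of heavily mutated clones 72.9%, 66.9%, 73.8%, 67.0%, 87.2%, 85.9% and 69.7%. Every heavily mutated value thus lay above every lightly mutated one. The mean was 38.7% ± 18.1 in lightly and 74.8% ± 8.47 in heavily mutated clones, a difference of 36.0 percentage points (exact p = 0.0156, adjusted 0.102, higher in 7 of 7 mice). Without shared sequences 5 mice remained, with a difference of 34.4 points in 5 of 5 mice (exact p = 0.0625, the smallest that 5 mice allow).

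G98T is itself a G:C transversion, so its rarity in heavily mutated clones bears on this share. With codon 33 (nucleotides 97 to 99) left out, the transition share of Exo1+/+ mice was 47.2% in lightly and 76.7% in heavily mutated clones, a difference of 29.5 points (exact p = 0.0312, higher in 6 of 6 mice). The values of single mice then ranged from 23.8% to 69.3% in lightly and from 68.1% to 87.2% in heavily mutated clones. By substitution, G to A took 15.3% of the mutations outside codon 33 in lightly and 37.2% in heavily mutated Exo1+/+ clones, G to C took 13.6% and 8.63% (up to 54.4% in lightly mutated clones of a mouse), C to G took 8.21% and 3.95% and G to T took 3.18% and 4.45%.

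The transition share of Exo1DA/DA mice was 66.4%, 29.3%, 84.0%, 47.0%, 77.1% and 88.1% in lightly mutated clones (mice 1, 2, 3, 4, 7 and 8) and 86.9%, 95.6%, 88.7%, 83.5%, 89.4% and 95.0% in heavily mutated clones. It was higher in the heavily mutated clones of 6 of 6 mice by 24.5 points (65.3% ± 23.0 against 89.8% ± 4.68, exact p = 0.0312, adjusted 0.135). Without codon 33 the means were 82.7% and 90.2%, and the difference shrank to 7.50 points, positive in 4 of 6 mice (exact p = 0.594). Mouse 2 carried most of what was left, with a difference of 49.9 points, and the other 5 mice lay between -7.69 and 6.56 points. In the 2 Exo1-/- mice with enough mutations the share went from 80.7% to 92.8% (mouse 1) and from 35.3% to 72.5% (mouse 3), and without codon 33 from 84.7% to 92.8% and from 69.5% to 72.5%.

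The class difference itself was compared between genotypes. With all positions it was 11.5 points smaller in Exo1DA/DA than in Exo1+/+ mice (exact permutation p = 0.312) and 11.4 points smaller in Exo1-/- mice (exact permutation p = 0.472). With an Exo1+/+ mouse left out, the Exo1-/- value ran from -15.1 (without Exo1+/+ mouse 4) to -6.89 points (without Exo1+/+ mouse 1). Neither of the 2 Exo1-/- mice was left out of this value. The class difference of Exo1-/- mouse 3 lay above the Exo1+/+ mean and that of mouse 1 below it. The direction of the value thus depended on the Exo1-/- mouse. Without codon 33 it was 22.05 points smaller in Exo1DA/DA mice (6 against 6 mice, exact permutation p = 0.0628) and 24.0 points smaller in Exo1-/- mice (2 against 6 mice, exact permutation p = 0.0714). Restricted, in addition, to clones whose sequence was drawn in every iteration, an alternative added after the data were seen, it was 30.6 points smaller in Exo1DA/DA mice (4 against 6 mice, exact permutation p = 0.00476), the class difference there being -2.46 points. Exo1DA/DA mice 2 and 4 had too few such mutations and dropped out, so that mouse 2, with the difference of 49.9 points, did not enter this value.

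**Figure D3:**
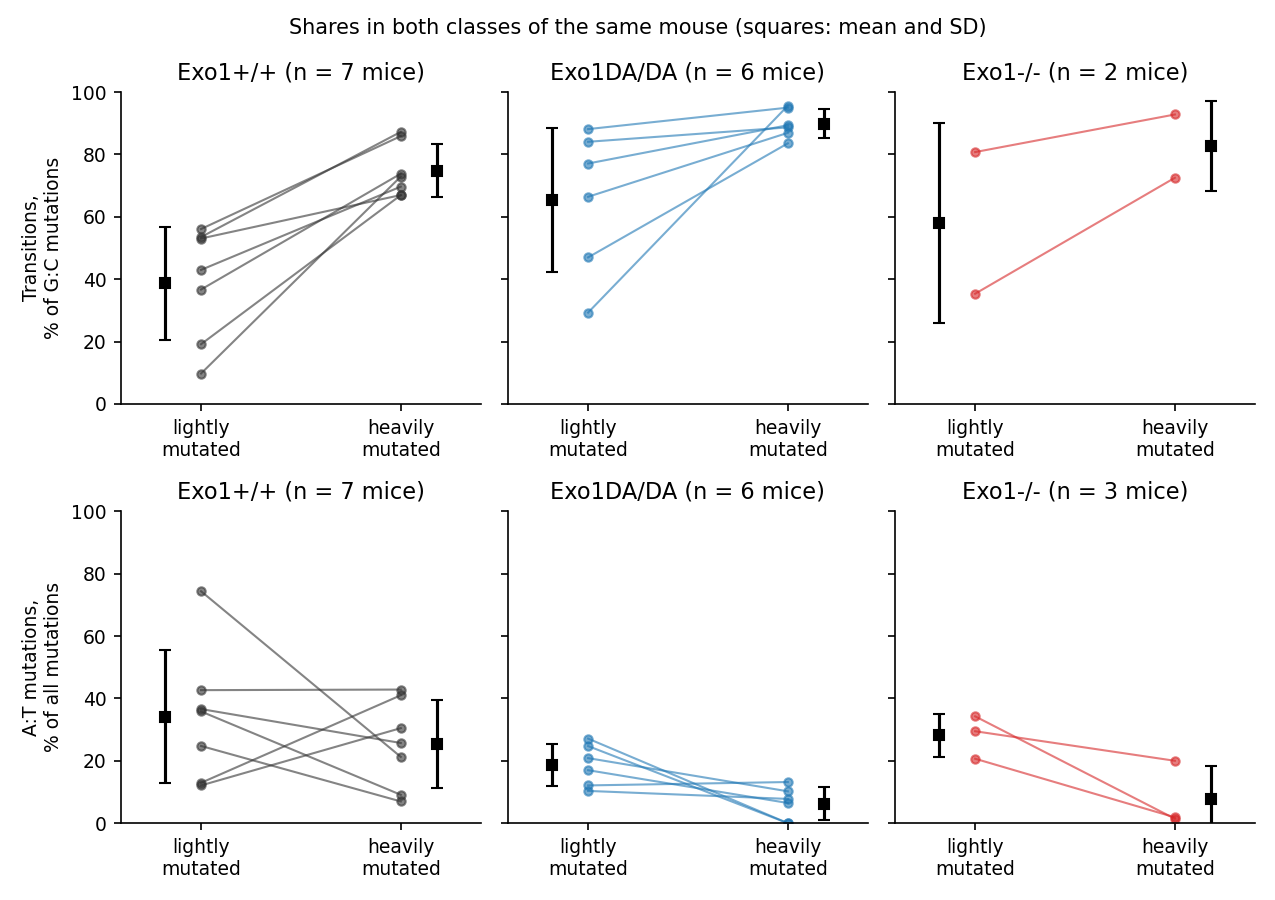
Transitions as a percent of G:C mutations (top, y axis) and A:T mutations as a percent of all mutations (bottom, y axis) in lightly and heavily mutated clones; each line joins both classes of a mouse and squares are means with SD. All lines rise in the upper row, from 38.7% to 74.8% on average in Exo1+/+ mice, while in the lower row 3 of 7 lines rise for the wild type, 1 of 6 for Exo1DA/DA and 0 of 3 for Exo1-/-.

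The A:T share of Exo1+/+ mice overlapped widely between the classes. It was 12.9%, 36.6%, 74.3%, 42.6%, 35.8%, 24.8% and 12.1% in lightly mutated clones (mice 1 to 7) and 41.0%, 25.7%, 21.3%, 42.8%, 9.09%, 6.97% and 30.5% in heavily mutated clones. The share was higher in the heavily mutated clones of 3 of 7 mice (34.2% ± 21.3 against 25.3% ± 14.1, difference -8.84 points, exact p = 0.469). Without codon 33 the difference was -18.1 points, lower in 5 of 7 mice (exact p = 0.0938), and with each pattern counted 1 time per mouse it was -18.9 points, lower in 6 of 7 (exact p = 0.0625). With a weight of 1 for each sequence it was -20.7 points (exact p = 0.0781). For comparison, 47.7% of the sites are A:T pairs. Mouse 3, with the highest lightly mutated value, had A222G, A241T and A281G together in 24.1% of its lightly mutated, 74.6% of its intermediate and 22.2% of its heavily mutated clones (4 of 18). Without this mouse the difference was -1.46 points, and without mouse 1 it was -14.99 points. Mice 5 and 6, with the lowest heavily mutated values, were those with 97.4% and 100% of shared heavily mutated clones. Without shared sequences these mice dropped out, and the means of the other 5 were 35.7% in lightly and 35.4% in heavily mutated clones (difference -0.33 points, exact p = 1, the largest a test can give).

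In the mutants the A:T share was lower in the heavily mutated clones of most mice, all but 1 with shared sequences counted and all but 3 without them. The A:T share of Exo1DA/DA mice was 10.3%, 27.1%, 24.7%, 12.1%, 20.9% and 16.98% in lightly mutated clones (mice 1, 2, 3, 4, 7 and 8) and 7.78%, 0%, 0%, 13.2%, 10.2% and 6.47% in heavily mutated clones. It was lower in 5 of 6 mice, by 12.4 points on average (18.7% ± 6.75 against 6.27% ± 5.37, exact p = 0.0625, adjusted 0.163). With codon 33 left out it was lower in 6 of 6 mice, with a difference of -16.97 points (exact p = 0.0312), and without shared sequences in 4 of 6, with a difference of -10.5 points (exact p = 0.156). The values of 0% rested on 60.7 and 145.5 mutations per draw in the heavily mutated clones of mice 2 and 3. These were only 8 clones in 2 lineages and 17 clones in 5 lineages, the largest lineage holding 62.5% and 76.5% of them. Mutations shared within a lineage were thus counted more than 1 time. In Exo1-/- mice the share was 34.2%, 20.7% and 29.5% in lightly and 1.42%, 1.87% and 20.0% in heavily mutated clones, lower in 3 of 3 mice by 20.4 points (exact p = 0.25, the smallest possible), and without shared sequences it was lower in 2 of 3, with a difference of -16.6 points (exact p = 0.5). A genotype difference in the class difference was not detected, at 3.57 points more negative in Exo1DA/DA (exact permutation p = 0.779) and 11.5 points more negative in Exo1-/- than in Exo1+/+ mice (exact permutation p = 0.533). The latter value ran from -18.9 (without Exo1+/+ mouse 3) to -5.29 points (without Exo1-/- mouse 1) with a mouse left out, and was -5.37 and -6.99 points without Exo1+/+ mice 1 and 7. It was -25.2 points with all listed positions and -27.4 points between clones of 1 to 2 and of 8 or more positions.

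Clones without any A:T mutation were counted as well. Of the heavily mutated clones pooled over mice, 25.9% of wild-type, 47.6% of Exo1DA/DA and 82.8% of Exo1-/- clones carried no A:T mutation, although each had at least 6 mutated positions. Among lightly mutated clones 50.8%, 69.5% and 54.6% carried none. The pooled Exo1-/- value was set by mouse 2 (83.6%), and mice 1 and 3 had 90% and 20%. Among Exo1DA/DA mice the heavily mutated value ran from 0.32% (mouse 6) to 100% (mice 2 and 3).

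Genotypes were then compared within each class by exact permutation of the genotype labels over mice. In heavily mutated clones the transition share was 90.1% ± 4.95 in Exo1DA/DA (n = 8) and 74.8% ± 8.47 in Exo1+/+ mice (n = 7), a difference of 15.3 points (exact permutation p = 0.00202, adjusted over 8 comparisons 0.0162), and it was the only one of the 25 tests with an adjusted p below 0.05 in its family. Over all 25 tests its adjusted p was 0.0505. Without shared sequences the difference was 24.5 points (8 against 5 mice, exact permutation p = 0.000777). Exo1+/+ mice 5 and 6, which had the highest Exo1+/+ shares (87.2% and 85.9%), dropped out of that value. The difference was 9.63 points with each mutation pattern counted 1 time per mouse (exact permutation p = 0.135). In lightly mutated clones the difference was 26.6 points (65.3% against 38.7%, exact permutation p = 0.0425, adjusted 0.113), and 35.5 points without codon 33 (exact permutation p = 0.013). It was 16.7 points with each pattern counted 1 time (exact permutation p = 0.112), its p was 0.0734 in an exact rank test, and with any of 8 single mice left out the exact permutation p was between 0.0563 and 0.0947. The Exo1-/- mice had 81.0% ± 10.6 in heavily mutated clones (n = 3), 6.21 points above Exo1+/+ (exact permutation p = 0.367). This difference was 0.30 points without Exo1-/- mouse 1 and 10.4 points without mouse 3.

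The A:T share of heavily mutated clones was 9.20% ± 9.82 in Exo1DA/DA mice (n = 8), 7.76% ± 10.6 in Exo1-/- mice (n = 3) and 25.3% ± 14.1 in Exo1+/+ mice (n = 7). The difference from Exo1+/+ was -16.1 points in Exo1DA/DA (exact permutation p = 0.0246, adjusted 0.0982, lower in 46 of 56 pairs of mice) and -17.6 points in Exo1-/- mice (exact permutation p = 0.0917, adjusted 0.158, lower in 19 of 21 pairs). Without shared sequences the Exo1DA/DA difference was -24.6 points (exact permutation p = 0.00389). Exo1+/+ mice 5 and 6, which had the lowest Exo1+/+ shares (9.09% and 6.97%), dropped out of that value. Leaving out Exo1+/+ mouse 1 or mouse 4 gave -13.5 and -13.2 points (exact permutation p = 0.0529 and 0.0536). In lightly mutated clones the corresponding differences were -15.5 points in Exo1DA/DA (exact permutation p = 0.0985) and -6.04 points in Exo1-/- mice (exact permutation p = 0.675). The Exo1DA/DA value depended on the positions counted, at -20.3 points without codon 33 (exact permutation p = 0.0309) and -4.26 points with all listed positions (exact permutation p = 0.674). Without Exo1+/+ mouse 3 it was -8.79 points.

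AID hotspots, which cover 29.1% of the G:C sites examined (39 of 134), held most G:C mutations of heavily mutated clones on average in every genotype. In Exo1+/+ mice the hotspot share was 6.24%, 37.0%, 50.3%, 41.8%, 57.5%, 71.4% and 29.3% in lightly mutated clones (mice 1 to 7) and between 65.4% and 81.0% in heavily mutated clones. It was higher in the latter in 7 of 7 mice (41.9% ± 21.0 against 72.4% ± 4.98, exact p = 0.0156, adjusted 0.102). Nucleotide 98 lies outside the hotspots, and without codon 33 the lightly mutated mean was 61.7% and the heavily mutated mean 73.6%, higher in only 3 of 6 mice (exact p = 0.438). Exo1DA/DA mice had 65.0% ± 23.9 in lightly and 68.1% ± 12.5 in heavily mutated clones (higher in 3 of 6 mice, exact p = 0.781). With each pattern counted 1 time per mouse the difference was 14.9 points, higher in 7 of 8 mice (exact p = 0.0469). Without codon 33 their lightly mutated clones stood at 83.1% and their heavily mutated clones at 68.4%, lower in 5 of 6 mice (difference -14.7 points, exact p = 0.125). In Exo1-/- mice the share went from 64.4% to 74.5% (mouse 1) and from 42.2% to 82.5% (mouse 3), and without codon 33 from 67.6% to 74.5% and from 86.1% to 82.5%.

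Polη hotspots (WA or TW, 36.9% of the A:T sites) took more of the A:T mutations of heavily mutated clones in each Exo1+/+ mouse compared. The share was 57.0%, 60.9%, 37.2%, 34.7% and 4.03% in lightly and 70.4%, 88.2%, 83.1%, 48.1% and 30.8% in heavily mutated clones (mice 2, 3, 5, 6 and 7), higher in 5 of 5 mice by 25.3 points (exact p = 0.0625, the smallest possible, adjusted 0.163). Below the minimum of 10 mutations, mouse 1 had 27.9% and 41.5%, and mouse 4 had 62.7% and 72.6%, again higher in heavily mutated clones. No Exo1DA/DA mouse had enough A:T mutations in both classes. With fewer mutations admitted, the share was 67.5% and 57.0% in mouse 1, 32.6% and 41.7% in mouse 4, 62.9% and 81.2% in mouse 7 and 47.3% and 56.5% in mouse 8, with fewer than 9 A:T mutations per draw behind each lightly mutated value. Mouse 3 was the only Exo1-/- mouse to reach the minimum and had 9.74% and 40%. Below it, mouse 1 had 15.8% and 33.3% and mouse 2 had 80.2% and 77.4%.

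Mutations in CDR1 and CDR2 (codons 26 to 33 and 51 to 58, 18.8% of the sites), the loops that contact antigen, exceeded their share of sites on average in both classes with all positions counted, and which class had more of them depended on codon 33. With all positions the CDR share of Exo1+/+ mice was 38.8% ± 16.0 in lightly and 30.2% ± 5.60 in heavily mutated clones, lower in 6 of 7 mice (exact p = 0.188). Without codon 33 it was 26.4, 10.9, 18.95, 7.76, 11.9, 4.92 and 15.7 points higher in the heavily mutated clones of mice 1 to 7 (means 16.0% and 29.8%, higher in 7 of 7 mice, exact p = 0.0156). Exo1DA/DA mice had 38.0% ± 13.7 in lightly and 32.6% ± 10.6 in heavily mutated clones (exact p = 0.438), a difference of -5.45 points that was -0.64 points without mouse 1. Without codon 33 the share was higher in heavily mutated clones of 4 of 6 mice by 9.65 points (exact p = 0.312). The Exo1-/- values were 34.9% ± 5.87 and 28.8% ± 5.99 (exact p = 0.5), a difference of -6.09 points that was -0.67 points without mouse 3. Without codon 33 the share went from 32.6% to 35.5% in mouse 1 and from 5.74% to 24% in mouse 3.

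**Figure D4:**
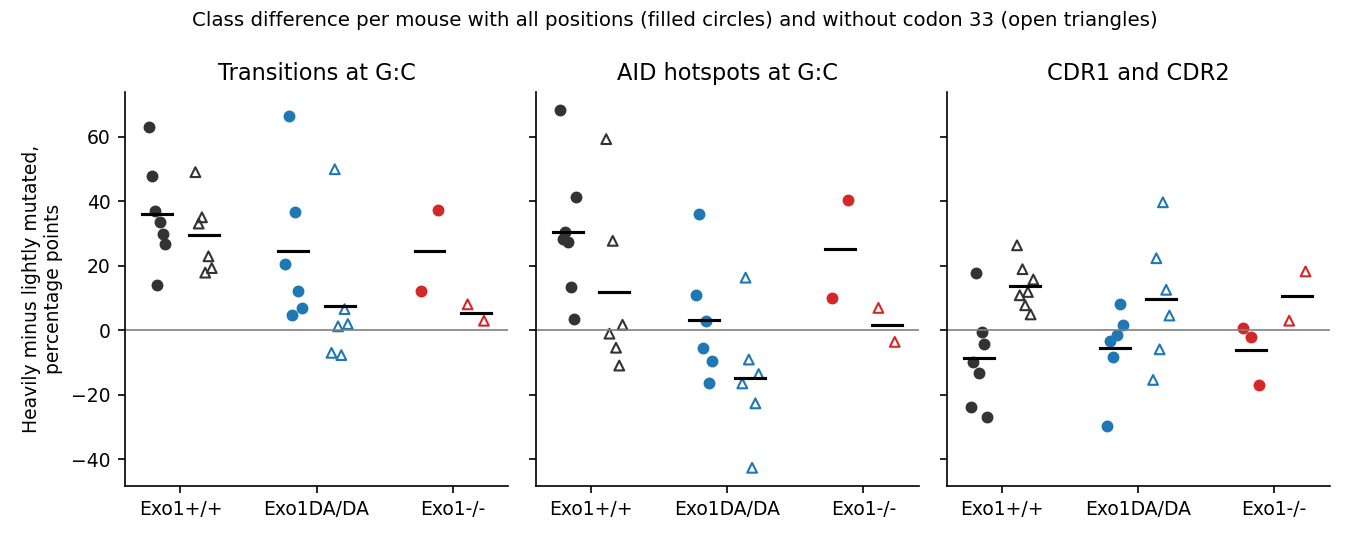
Share in heavily minus share in lightly mutated clones of the same mouse (y axis, percentage points) for transitions and AID hotspots at G:C and for CDR1 and CDR2, with all positions (filled circles) and without codon 33 (open triangles); lines are means. Without codon 33 the Exo1+/+ transition difference stays above 0 in 6 of 6 mice, the Exo1DA/DA mean is 7.50 in place of 24.5 points, and the CDR difference turns from -8.67 to 13.8 points in Exo1+/+ mice.

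Single positions were then compared. Of 256 positions in Exo1+/+ mice, 8 (3.12%) had a higher share of the mutations of heavily mutated clones at an unadjusted exact p below 0.05, and 110 (43%) had a lower one. In Exo1DA/DA mice 1 position (0.391%) was higher and 94 (36.7%) were lower, and in neither genotype did a position have an adjusted p below 0.05 (0 of 256, 0%). Most of the lower positions were rare even in lightly mutated clones, since 78 of the 110 and 74 of the 94 took less than 0.1% of the mutations of lightly mutated clones. All 256 positions were hit in lightly mutated Exo1+/+ clones when every sequence was counted, but 72 were hit in lightly mutated clones whose sequence was drawn in every iteration, against 140 in such heavily mutated clones. All 8 higher Exo1+/+ positions were G:C pairs and 7 of them lay in AID hotspots, whereas 72 of the 110 lower ones were A:T pairs. Of all 256 positions, 122 are A:T pairs and 39 lie in AID hotspots.

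Nucleotides 92, 170 and 197 were among the 4 commonest positions of heavily mutated clones in each genotype, and nucleotide 114 was so in Exo1+/+ and Exo1-/- mice. Nucleotide 114, mostly mutated as G114A, a silent change of codon 38 in a WGCW motif (overlapping AID hotspots on both strands), took 2.43%, 1.02%, 0.0042%, 0.98%, 0.28%, 0.99% and 0.0014% of the mutations of lightly mutated Exo1+/+ clones (mice 1 to 7). In heavily mutated clones it took 8%, 5.44%, 1.88%, 3.08%, 4.36%, 5.36% and 5.47%, higher in 7 of 7 mice, although the ranges of the classes overlapped (exact p = 0.0156, adjusted 0.0615). Its share was 1.81% ± 2.56 and 3.61% ± 4.50 in Exo1DA/DA mice (higher in 3 of 6, exact p = 0.5). In Exo1-/- mice it took 0.77% ± 1.33 and 8.67% ± 1.54, higher in 3 of 3 mice, and was the commonest position of heavily mutated clones.

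Nucleotide 170, in a GYW motif of CDR2, was the commonest position of heavily mutated Exo1+/+ clones, at 5.14% ± 2.58 against 0.97% ± 2.46 in lightly mutated clones, higher in 6 of 7 mice (exact p = 0.0781). The commonest change there was G170A, which replaces glycine by aspartate (G57D). In Exo1DA/DA mice nucleotide 170 took at most 0.019% of the mutations of lightly mutated clones and 8.77%, 4.94%, 1.37%, 3.30%, 3.28% and 1.88% of those of heavily mutated clones (mice 1, 2, 3, 4, 7 and 8). The ranges did not overlap, and the share was higher in 6 of 6 mice (3.92% ± 2.68 on average, exact p = 0.0312, adjusted 0.0842). Exo1-/- mice had 1.36% ± 2.29 and 5.96% ± 1.72.

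Nucleotide 197 (mostly G197A, S66N in a WGCW motif of framework 3) took 1.38% ± 1.92 in lightly and 3.76% ± 2.33 in heavily mutated Exo1+/+ clones (higher in 6 of 7 mice, exact p = 0.0312). The values were 1.59% ± 2.55 and 6.05% ± 3.13 in Exo1DA/DA mice (higher in 5 of 6, exact p = 0.0625) and 4.17% ± 7.13 and 8.07% ± 2.42 in Exo1-/- mice. Nucleotide 177 (mostly G177A, silent in codon 59, GYW) took 0.17% ± 0.32 and 2.67% ± 2.20 in Exo1+/+ mice (higher in 6 of 7, exact p = 0.0312). G164A (S55N in CDR2, outside the AID motifs) marked the commonest position of heavily mutated Exo1DA/DA clones, at 6.39% ± 4.24 against 0.97% ± 1.96 in lightly mutated clones (higher in 5 of 6 mice, exact p = 0.0625).

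Nucleotide 92 was mostly mutated as G92A (S31N in CDR1) in Exo1+/+ and Exo1DA/DA mice. It took 1.89% ± 1.98 in lightly and 4.10% ± 2.85 in heavily mutated Exo1+/+ clones (higher in 6 of 7 mice, exact p = 0.0312, adjusted 0.0678). In Exo1DA/DA clones it took 6.56% ± 3.59 and 4.77% ± 3.90 (lower in 6 of 6 mice, exact p = 0.0312, adjusted 0.0842). Several of these mice were near ties, with differences of -2.29, -4.76, -0.0094, -0.0072, -3.54 and -0.135 points (mice 1, 2, 3, 4, 7 and 8). The contrast between the genotypes was not tested.

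Positions that led the lightly mutated class, other than nucleotide 98, were mostly those of 1 mouse. The nucleotides of A222G, A241T and A281G took 3.91%, 3.23% and 3.42% of the mutations of lightly mutated Exo1+/+ clones on average, with maxima of 20.8%, 17.98% and 19.3%, all in mouse 3. Nucleotide 180 (C180T) took 8.81% in Exo1DA/DA mice, with 39.6% in mouse 4, where G98T with C180T formed 66.1% of the lightly mutated clones. Nucleotide 77 (G77A) took 3.81%, with 22.8% in mouse 1, where G77A with G98T formed 42.7%. Nucleotide 181 (A181G) took 8.47% in Exo1-/- mice, with 25.4% in mouse 1, where A181G formed 31.8% of the lightly mutated clones as the only change. A set of 3 changes, G30A, T33G and C58G, formed a lightly mutated pattern in 3 Exo1+/+ mice (12.5 clones) and in Exo1-/- mouse 3 (6 clones).

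Of the 10 commonest positions of each class, 1 was shared between the classes in Exo1+/+ mice (nucleotide 30), and 4 were shared in each mutant. A:T positions numbered 4, 0 and 2 among the 10 of lightly mutated clones of these genotypes and 0 in each among those of heavily mutated clones.

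**Figure D5:**
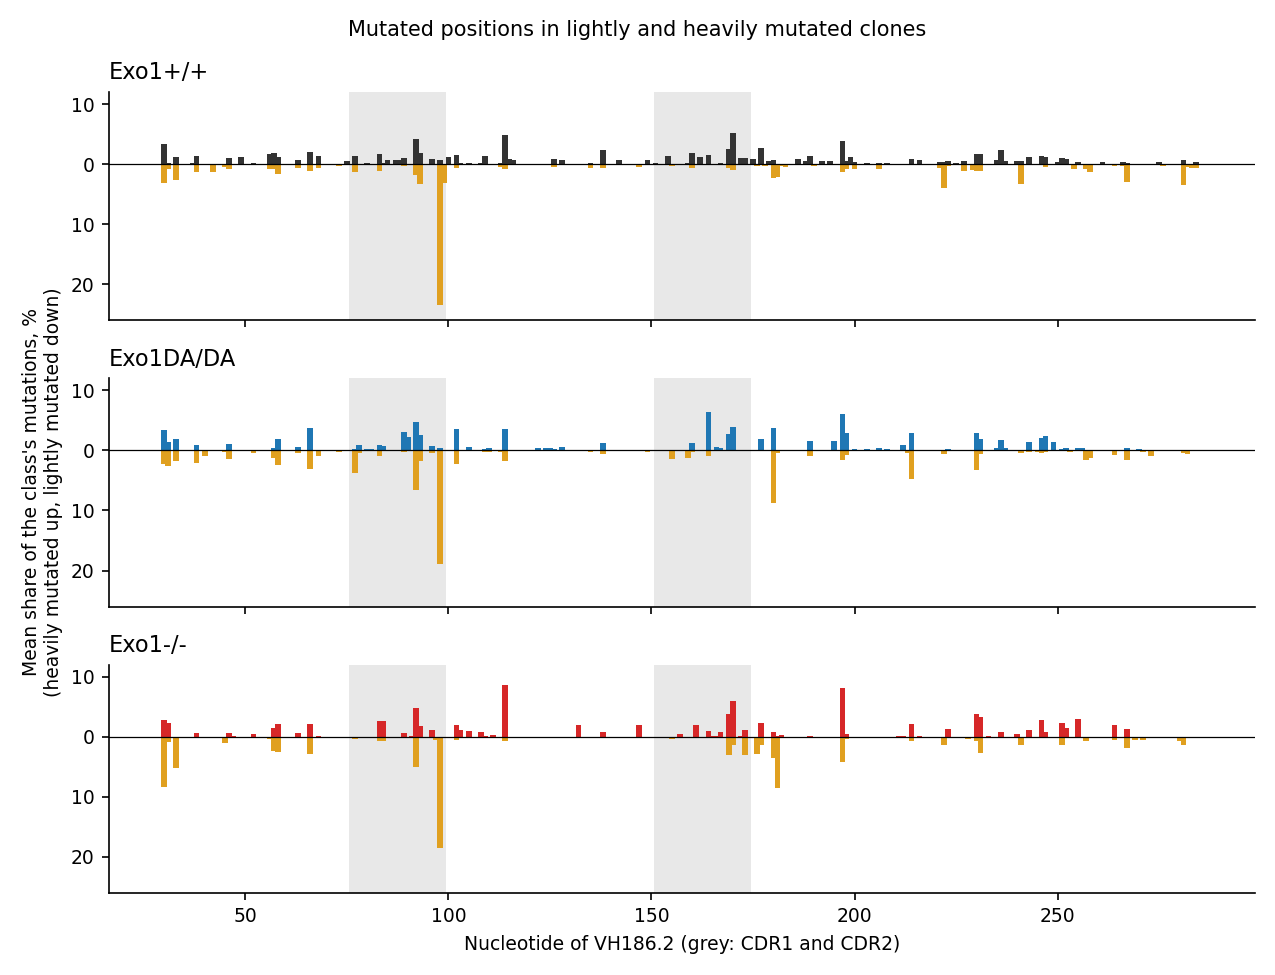
Mean share of a class's mutations (y axis, percent) at each nucleotide of VH186.2 (x axis), with heavily mutated clones drawn upward and lightly mutated clones (yellow) downward, over the mice with at least 10 mutations per draw in both classes; grey marks CDR1 and CDR2. Nucleotide 98 reaches 23.4%, 18.9% and 18.6% (Exo1+/+, Exo1DA/DA, Exo1-/-) in lightly mutated clones and at most 0.60% in heavily mutated clones, where nucleotide 170 takes 5.14%, 3.92% and 5.96% and nucleotide 197 takes 3.76%, 6.05% and 8.07%.

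Other features of the mutations were described without a test. WGCW sites, 16.4% of the G:C sites, held 30.5% ± 17.5 of the G:C mutations of lightly and 46.6% ± 7.18 of those of heavily mutated Exo1+/+ clones (higher in 6 of 7 mice), and 39.2% ± 25.5 and 48.4% ± 10.4 in Exo1DA/DA mice (higher in 4 of 6). Amino acid replacements made up 75.4% ± 11.01 and 69.8% ± 8.60 of the mutations in Exo1+/+ mice (higher in heavily mutated clones of 4 of 7), 66.5% ± 12.1 and 60.1% ± 6.62 in Exo1DA/DA mice (3 of 6) and 65.5% ± 4.46 and 58.5% ± 1.89 in Exo1-/- mice (0 of 3). For comparison, 77.7% of all possible substitutions and 60.4% of all possible G:C transitions are replacements. By number of mutated positions, the transition share of Exo1+/+ mice was 7.77% ± 5.64 at 1 position (2 mice), 40.3% ± 19.4 at 2 (5 mice), 41.3% ± 27.502 at 3 (5 mice), 55.3% ± 16.6 at 4 (7 mice), 68.0% ± 15.001 at 5 (5 mice), 58.6% ± 12.2 at 6 (5 mice), 73.01% ± 14.1 at 7 to 9 (6 mice) and 78.7% ± 9.19 at 10 or more (7 mice). The Exo1DA/DA values were 10.8% at 1 position (1 mouse), 62.3% ± 22.8 at 2 (5 mice), 83.0% ± 11.5 at 3 (3 mice), 78.8% ± 25.0 at 4 (7 mice), 80.0% ± 18.5 at 5 (8 mice), 83.4% ± 17.7 at 6 (7 mice), 86.3% ± 7.59 at 7 to 9 (8 mice) and 93.6% ± 4.78 at 10 or more (7 mice). Without codon 33 the wild-type means were 12.7% at 1 position (2 mice), 62.7% at 2 (4 mice), 59.6% at 3 (4 mice), 58.9% at 4, 70.6% at 5, 60.9% at 6, 74.02% at 7 to 9 and 78.8% at 10 or more. The Exo1DA/DA means were then 93.8% at 2 (3 mice), 88.3% at 3 (3 mice), 80.9% at 4, 83.02% at 5, 84.5% at 6, 86.6% at 7 to 9 and 93.6% at 10 or more (7 mice). The means of 2 and of 10 or more positions thus lay within 1 SD of each other. No Exo1DA/DA mouse reached the minimum at 1 position, where the share pooled over mice was 57.8% of 12.2 mutations per draw.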

How the data were processed

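VH186.2 mutations of 18 mice were taken from 3 lists deposited by the authors, 1 per genotype. Per the study's methods, read pairs were merged and reduced to unique molecules, IMGT/HighV-QUEST gave the V, D and J genes and the CDR3 clones, and a sequence was drawn at random from every clone in each of 1000 iterations. In the deposited lists each line is 1 mutation, with its nucleotide position, bases, hotspot motif, iteration and dataset number, and without counts or levels. Program versions are not given in the sources used here. The labels give the dose of antigen as 200 mg and their extraction text as 200 µg. Unmutated clones have no line and read depth is unknown, so no counting interval is given.

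Iterations of a sequence divided by 1000 were its weight, and positions 30 to 285 were used. In all, 67.4% of lightly and 86.9% of heavily mutated clones had a sequence drawn in every iteration. Shares were weighted sums per mouse and class, with at least 10 mutations in the denominator, of both classes where classes were compared and of the class itself where genotypes were compared within it. Classes were compared by exact sign-flip tests and genotypes by exact permutation of labels over mice, 2-sided, with Benjamini-Hochberg adjustment within families of 13, 4 and 8. Positions named were, per genotype, the 5 commonest of each class, the 3 largest gains and the 3 largest losses of mean share, and nucleotide 98. The changes T33G and C58G and the Exo1DA/DA value of nucleotide 114 were named after their values were seen. Classes, lists and tests were chosen with earlier results of these data known. The tests were checked on simulated data. Python 3.11.15, NumPy 2.4.6, pandas 2.3.3, SciPy 1.17.1 and Biopython 1.88 were used. No genome was used here, so reads of related V genes were not looked for.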

Additional observations from a re-analysis of the deposited data

Results flagged for a closer look

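The A:T share of heavily mutated clones stood apart in 1 Exo1DA/DA mouse. Mouse 6 had 30.7%, against 13.2% in the next highest of the 8 mice, and its gap to that mouse was 0.571 of the whole range. All of its 33.2 heavily mutated clones belonged to 1 lineage, and 0.32% of them carried no A:T mutation. The mouse had 1.01 lightly mutated clones and so entered no comparison of the classes. Of 28 sets of values examined for a value far from the others, 1 held such a value. The limits used are meant to mark about 1 set in 20 by chance where values are independent and normally distributed, which was not checked here. The part of the lineage in the value was not tested.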

How the results depend on the processing

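The comparisons were repeated under other class limits, weights, denominators and subsets of sequences, and with each mouse left out in turn. Apart from leaving out mice, 246 values kept their direction and their side of an unadjusted exact p of 0.05, 23 changed sign, 9 passed this threshold newly and 20 no longer passed it. All values are percentage points, heavily minus lightly mutated or mutant minus Exo1+/+.

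With lightly mutated clones of 1 to 2 and heavily mutated clones of 8 or more positions, the Exo1+/+ differences were 46.8 (transitions) and 38.7 (AID hotspots), and the Exo1-/- A:T difference in lightly mutated clones was 14.3. Without shared sequences the Exo1+/+ values were 34.4 and 39.4, and with at least 30 mutations 40.2 and 31.1. In these 3 settings 5 mice were left, and the exact p of each Exo1+/+ value was 0.0625, the smallest possible. A minimum of 30 also gave 31.2 for Exo1DA/DA transitions (3 mice) and 25.0 for the genotype difference of transitions in lightly mutated clones.

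Without codon 33, AID hotspots were 11.9 in Exo1+/+ and -14.7 in Exo1DA/DA mice, CDRs 13.8, 9.65 and 10.6 in Exo1+/+, Exo1DA/DA and Exo1-/- mice, Exo1DA/DA A:T and transition differences -16.97 and 7.50, the Exo1DA/DA against Exo1+/+ difference of A:T differences 1.183 and the A:T difference in lightly mutated clones -20.3. With only sequences drawn in every iteration as well, a choice made after the data were seen, AID hotspots were 7.99, -19.6 and -2.68 and CDRs 16.7, 8.45 and 11.5 in the 3 genotypes, Exo1DA/DA transitions -2.46, their difference from Exo1+/+ -30.6 and the Exo1-/- A:T difference in lightly mutated clones 0.21. With that restriction alone, Exo1DA/DA transitions were 23.2, AID hotspots -0.027, and in lightly mutated clones the Exo1-/- A:T difference was 0.42 and the Exo1DA/DA transition difference 29.1.

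Counting each pattern 1 time gave 25.7 for Polη hotspots in Exo1+/+ mice, 14.9 for AID hotspots in Exo1DA/DA mice (exact p = 0.0469, passing newly), 1.12 for CDRs in Exo1-/- mice, 1.07 for the difference of A:T differences, and transition differences between Exo1DA/DA and Exo1+/+ of 16.7 in lightly and 9.63 in heavily mutated clones (exact permutation p = 0.135). Giving each sequence a weight of 1 gave 25.2, 2.91 (CDRs), 4.24 (A:T differences), 17.8 and 10.7 (exact permutation p = 0.0852). The difference of transitions in heavily mutated clones thus did not pass under these 2 weights. All listed positions gave 24.2 for Polη hotspots, -25.3 for Exo1DA/DA A:T, 3.57 for Exo1-/- CDRs and 9.35 for Exo1-/- A:T in lightly mutated clones. Lightly mutated clones of 2 to 3 positions gave 20.2 and -1.36 for Exo1DA/DA transitions and AID hotspots, 0.073 for Exo1-/- CDRs and -18.3 for A:T in lightly mutated Exo1DA/DA clones. Counting each lineage 1 time gave 22.8 for Exo1DA/DA transitions, and a rank test left the transition difference of 26.6 in lightly mutated clones above the threshold (exact permutation p = 0.0734).

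With each mouse left out, Exo1+/+ transitions stayed between 31.5 and 39.7, AID hotspots between 24.2 and 34.9, and transitions in heavily mutated Exo1DA/DA against Exo1+/+ clones between 14.0 and 17.4. Exo1DA/DA transitions ran from 16.2 (without mouse 2) to 28.5, with an exact p of 0.0625 at 5 mice, and AID hotspots from -3.45 (without mouse 2) to 7.04. Exo1+/+ CDRs ran from -13.1 (without mouse 3, exact p = 0.0312) to -5.64, Exo1DA/DA CDRs from -8.21 to -0.64 (without mouse 1) and Exo1-/- CDRs from -9.57 to -0.67 (without mouse 3). Exo1+/+ A:T ran from -14.99 (without mouse 1) to -1.46 (without mouse 3). The Exo1DA/DA against Exo1+/+ difference of A:T differences ran from -10.95 to 2.58 (without Exo1+/+ mouse 1; 0.96 without Exo1+/+ mouse 7), and that of transition differences from -19.9 (without Exo1DA/DA mouse 2, exact permutation p = 0.0442) to -6.98. The Exo1-/- counterpart for A:T differences ran from -18.9 to -5.29. That for transition differences ran from -15.1 to -6.89 with only Exo1+/+ mice left out. No Exo1-/- mouse was left out of it, although the class differences of Exo1-/- mice 1 and 3 lay below and above the Exo1+/+ mean. Exo1-/- transitions in heavily mutated clones ran from 0.30 to 10.4. In lightly mutated clones A:T ran from -19.2 to -8.79 in Exo1DA/DA (exact permutation p = 0.0411 and 0.0325 without Exo1+/+ mice 1 and 7) and from -9.72 to 0.65 (without Exo1+/+ mouse 3) in Exo1-/- mice. Transitions there ran from 21.7 to 33.8, with an exact permutation p between 0.0563 and 0.0947 without any of Exo1+/+ mice 1, 2, 3 and 7 and Exo1DA/DA mice 1, 3, 7 and 8. In heavily mutated clones A:T ran from -19.2 to -13.2 in Exo1DA/DA (exact permutation p = 0.0529 and 0.0536 without Exo1+/+ mice 1 and 4) and from -23.7 to -14.4 in Exo1-/- mice (exact permutation p = 0.0476 without Exo1+/+ mouse 6). In all, 178 such values kept direction and side, 4 changed sign, 5 passed newly and 16 no longer passed.

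The classes were paired within each mouse. Between genotypes, no paired analysis was possible because replicate numbers were given in accession order and the dataset numbers are not tied to samples. The number of mice, 2 or 3 for Exo1-/-, and unknown read depth limit these comparisons, and causes of the changes were not tested.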
